A study of Mus musculus with 110 samples.

Results

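The 50 genes described here encode the route of glucose carbon from uptake to the tricarboxylic acid (TCA) cycle: glucose transporters, the enzymes of glycolysis, the lactate dehydrogenases and lactate carriers, the mitochondrial pyruvate carrier and pyruvate dehydrogenase complex (PDH) with its kinases and phosphatases, and the enzymes of the cycle. They were taken by name, by no threshold on measured values, from a list drawn up with earlier results of these data known, and all 50 were found among the 56884 gene rows of the count tables. They were sequenced as polyA-selected RNA in the liver, interscapular brown adipose tissue (iBAT), inguinal white adipose tissue (iWAT) and epididymal white adipose tissue (eWAT) of 28 male wild-type C57BL/6N mice, single-housed and 16 weeks old at the end. The 4 groups of 7 mice were Ctrl_RT (control diet for 7 days at 22 °C), MetR_RT (methionine-restricted diet for 7 days at 22 °C), and Ctrl_CE and MetR_CE, which received the same diets before 24 h at 4 °C. The sample labels give 0.86% methionine for the control diet, 0.12% for the restricted diet and 0% cysteine for both, so that every group ate a diet without added cysteine. Each library came from 1 tissue of 1 mouse, and replicates were separate animals. After the 5 libraries that the study left out, 105 of 110 libraries remained, with 6 or 7 in every group but eWAT Ctrl_RT, which kept 4.

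Glycolysis splits glucose into pyruvate in the cytosol. Pyruvate is then reduced to lactate by lactate dehydrogenase or carried into mitochondria and oxidised to acetyl-CoA by PDH, which feeds the TCA cycle. PDH kinases switch the complex off and PDH phosphatases switch it on. Brown adipocytes take up glucose and burn fuel for heat through uncoupled respiration, white adipocytes use glucose mainly for fat synthesis and glycerol, and hepatocytes both break glucose down and make it.

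The tissue labels were checked against defining markers. The summed level of 7 hepatocyte genes ran from 53686 to 99570 CPM (counts scaled to the size of each library) in the liver, that of 6 adipocyte genes was at least 10115 CPM in every fat library, and that of 7 brown adipocyte genes was at least 8950 CPM in every iBAT library. Total counts per library ran from 6987895 to 33444374, both in the liver. Replicate 1 of the iBAT groups MetR_RT, Ctrl_CE and MetR_CE has a treatment tag that names another group than the title, which concerns 3 libraries. Titles were used, and the effect of the tag is given with the iBAT results. Because tissue pieces were sequenced in bulk, fewer cells of a type and less RNA per cell cannot be told apart in any value below.

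In Ctrl_RT mice, iBAT held the highest level per length for 39 of the 50 genes, the liver for 6, iWAT for 4 and eWAT for 1. Those of iWAT were Slc16a3, Pdp1 and the muscle forms Pgam2 and Eno3, whose relation to muscle RNA is given below. Over the iWAT Ctrl_RT libraries Pgam2 ran from 1.30 to 42.8 and Eno3 from 4.14 to 104 CPM per kb. Aldoa, the aldolase of glycolysis, had the highest mean level in iBAT, at 2201 CPM per kb, against 697 in iWAT, 405 in eWAT and 52 in the liver. Pdk4, a PDH kinase, stood at 767 CPM per kb in iBAT and at 61.9, 23.7 and 1.45 in iWAT, eWAT and the liver. The liver was set apart by its transporter and its lactate dehydrogenase: Slc2a2 (GLUT2) was at 62.6 CPM per kb there and at means of 0.101 or less in the fat depots, and Ldhb was at 1.27 CPM per kb against 416 for Ldha. Slc2a4 (GLUT4), the insulin-responsive transporter, showed the opposite distribution, with 214 CPM per kb in iBAT and 0.276 in the liver.

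A gene was called when its adjusted p was below 0.05 over all genes tested in the tissue (edgeR quasi-likelihood test, Benjamini-Hochberg) and its change was at least 1.5-fold. Levels are CPM scaled by TMM factors, and values after ± beside a log2 fold change are its standard error (SE). All 50 genes passed the filter of 10 counts in each tissue. The 7 genes that were called against Ctrl_RT in no tissue were Slc2a1, Aldoc, Pgam2, Eno3, Pdp1, Aco1 and Suclg2, of which Slc2a1 had a called interaction in iWAT.

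**Figure D1:**
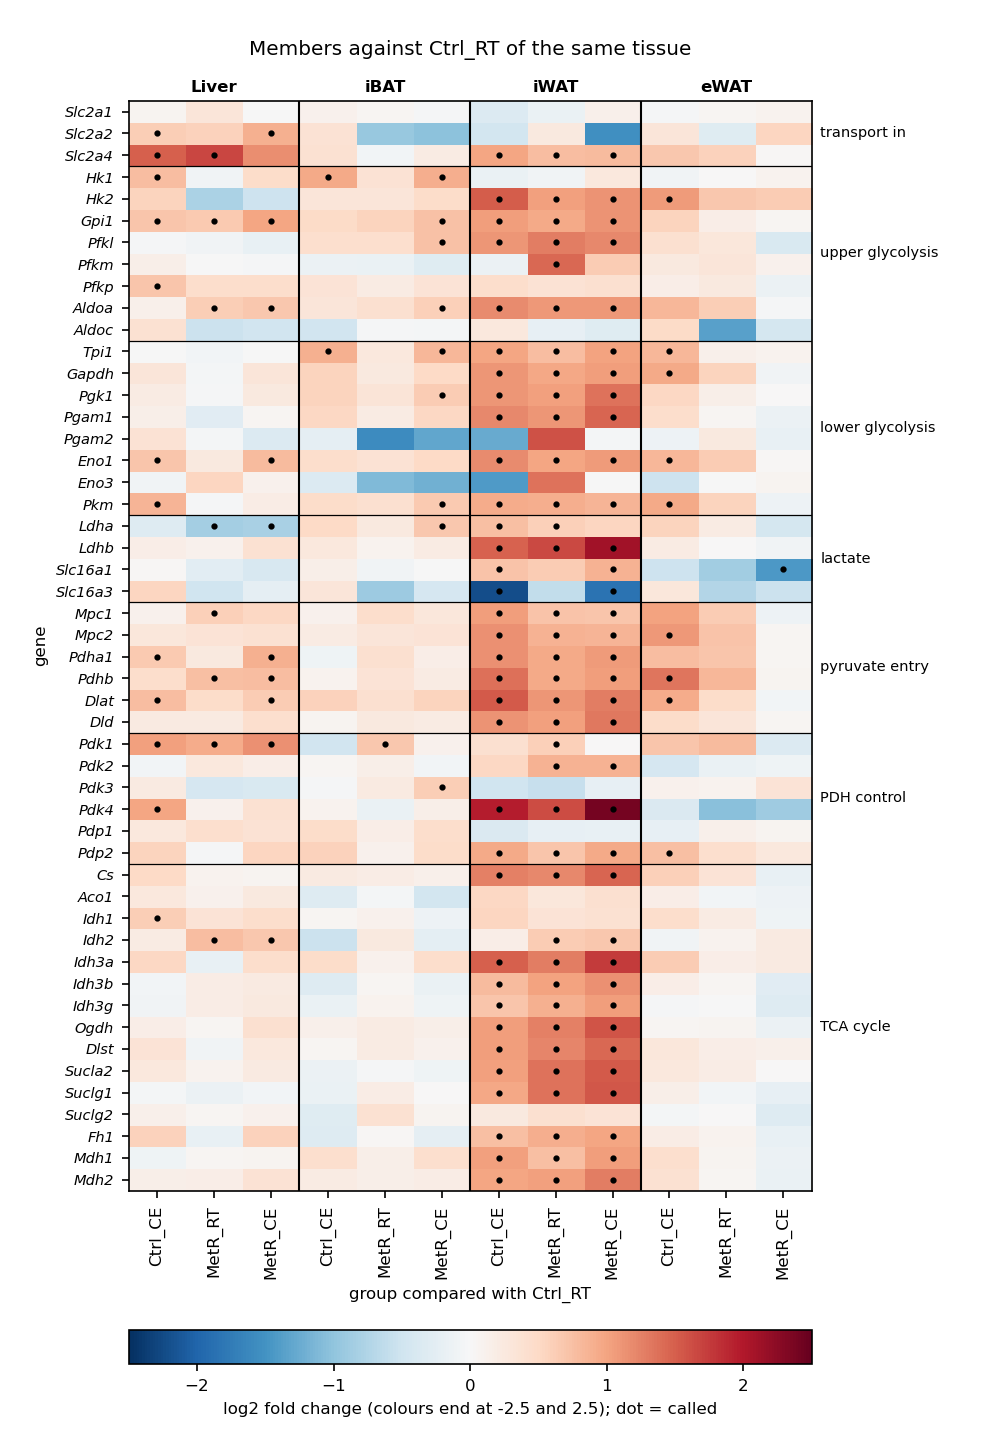
Log2 fold change of the 50 genes (rows, in the order of the pathway) in Ctrl_CE, MetR_RT and MetR_CE against Ctrl_RT of the same tissue (columns). Colours run from -2.5 to 2.5 and a dot marks a called gene; the 3 iWAT columns hold 34, 36 and 35 dots, more than those of any other tissue.

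The members rose as a block in iWAT. Of the 50 genes, 33 rose and 1 fell in Ctrl_CE, where 5.99% of the 26428 genes tested were called higher and 9.94% lower. In MetR_RT, 36 rose, against 4.25% of all genes called higher and 7.36% lower. In MetR_CE, 34 rose and 1 fell, against 8.05% and 14.4% of all genes. The median log2 fold change of the members was 0.98, 0.92 and 0.996 in these contrasts, and that of all genes tested was -0.11, -0.0311 and -0.08. The contrasts share the Ctrl_RT libraries, and 31 members were called higher in all 3. The rise included all 6 genes of pyruvate entry (Mpc1, Mpc2, Pdha1, Pdhb, Dlat and Dld) in each of the 3 contrasts, 11, 12 and 12 of the 15 TCA cycle genes in Ctrl_CE, MetR_RT and MetR_CE, 6 of the 8 genes of lower glycolysis (Tpi1 to Pkm) in each, and 4, 5 and 4 of the 8 genes of upper glycolysis (hexokinase to aldolase).

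Glucose uptake and its first phosphorylation rose in iWAT. Slc2a4 was at 226 to 537 (median 281.3) CPM in Ctrl_RT, 341 to 811 (median 498) in MetR_RT, 537 to 788 (median 609) in Ctrl_CE and 423 to 687 (median 564) in MetR_CE. The lowest Ctrl_CE library stood level with the highest Ctrl_RT library, and the MetR groups overlapped the upper Ctrl_RT libraries. The log2 fold change of Slc2a4 was 0.99 ± 0.18 (adjusted p = 0.000146) in Ctrl_CE, 0.77 ± 0.18 in MetR_RT and 0.80 ± 0.18 in MetR_CE. Hk2, the insulin-regulated hexokinase of fat and muscle, ran from 143 to 604 CPM in Ctrl_RT and from 487 to 817 CPM in Ctrl_CE. It rose by 1.51 ± 0.28 (adjusted p = 0.000202) in Ctrl_CE, by 1.02 ± 0.28 in MetR_RT and by 1.12 ± 0.29 in MetR_CE, on the log2 scale. The highest Ctrl_RT library, replicate 5, overlapped the other groups for Hk2, and the other 6 lay below every library of those groups, as the plot of iWAT levels shows. Slc2a1 (GLUT1), the basal transporter, was called in none of these contrasts, with log2 fold changes of -0.34 ± 0.10, -0.16 ± 0.10 and 0.12 ± 0.10.

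Among the glycolytic enzymes of iWAT, Aldoa had the highest level per length in Ctrl_RT, and Pgam1, a phosphoglycerate mutase, changed most in MetR_CE. Aldoa was at 1483 to 4091 (median 1913) CPM in Ctrl_RT, 3099 to 7893 (median 4445) in MetR_RT, 4042 to 6440 (median 5112) in Ctrl_CE and 3137 to 6318 (median 4547) in MetR_CE. Only the highest Ctrl_RT library reached into the other groups. Its log2 fold change was 1.18 ± 0.22 (adjusted p = 0.000172) in Ctrl_CE, 1.08 ± 0.22 in MetR_RT and 1.09 ± 0.22 in MetR_CE. Pgam1 was at 25.4 to 45 (median 31) CPM in Ctrl_RT, 38.2 to 99.4 in MetR_RT, 50.5 to 104 in Ctrl_CE and 73.1 to 125 in MetR_CE, and both cold groups lay wholly above Ctrl_RT. It rose by 1.21 ± 0.18 (adjusted p = 1.98e-05) in Ctrl_CE and by 1.45 ± 0.19 in MetR_CE. Gpi1, Pfkl, Tpi1, Gapdh, Pgk1, Eno1 and Pkm were called higher in all 3 contrasts, with log2 fold changes from 0.77 (Tpi1, MetR_RT) to 1.35 (Pgk1, MetR_CE).

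The lactate genes of iWAT did not move alike: both dehydrogenases and a carrier rose and the other carrier fell, though not each in all 3 contrasts. Ldha, whose subunit favours lactate formation, was at 871 to 1353 (median 1049) CPM in iWAT Ctrl_RT and 1482 to 2149 (median 1812) in Ctrl_CE, with no overlap, and rose by 0.75 ± 0.14 (adjusted p = 0.000151). In MetR_RT its change of 0.60 ± 0.14 lay just past the fold limit, and the call was lost with shrunken fold changes, with a block for the replicate number and without the libraries high in muscle RNA (log2 fold changes of 0.57, 0.58 and 0.52). In MetR_CE Ldha was at 0.54 ± 0.14 (adjusted p = 0.00313), under the fold limit. Ldhb, whose subunit favours the use of lactate, was at 30.6 to 57.5 (median 45.5) CPM in Ctrl_RT, 50.3 to 227 (median 109.7) in MetR_RT, 46.8 to 226 (median 111) in Ctrl_CE and 151 to 243.1 (median 194) in MetR_CE. The lowest libraries of MetR_RT and Ctrl_CE lay within the Ctrl_RT range, and all 6 MetR_CE libraries lay above it. Ldhb rose by 1.47 ± 0.29 (adjusted p = 0.000384) in Ctrl_CE, by 1.65 ± 0.29 in MetR_RT and by 2.10 ± 0.31 (adjusted p = 4.90e-06) in MetR_CE. Slc16a1 (MCT1), a carrier of lactate and pyruvate, rose by 0.71 ± 0.26 in Ctrl_CE and 0.86 ± 0.27 in MetR_CE, and was not called in MetR_RT (0.64 ± 0.26, adjusted p = 0.0772). Without the libraries high in muscle RNA the Ctrl_CE call was lost, as it was without Ctrl_RT replicate 5, at 0.64 each time.

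Slc16a3 (MCT4), the lactate exporter of glycolytic muscle and of macrophages, was the member that fell in iWAT. It was at 6.88 to 30.03 (median 10.2) CPM in Ctrl_RT, 1.58 to 35.8 (median 3.26) in MetR_RT, 0.865 to 5.33 (median 2.55) in Ctrl_CE and 1.05 to 10.4 (median 2.57) in MetR_CE. All Ctrl_CE libraries lay below Ctrl_RT, and 1 library each of MetR_RT and MetR_CE (replicate 6 in both) stood far above the rest of its group. The log2 fold change was -2.22 ± 0.63 (adjusted p = 0.00833) in Ctrl_CE, -1.84 ± 0.65 (adjusted p = 0.0261) in MetR_CE, and -0.61 ± 0.59 in MetR_RT, which was not called. Replicate 6 of MetR_RT and of MetR_CE also held the highest muscle RNA of their groups, and macrophage markers moved with the groups as given below. Their part in the values of Slc16a3 was not tested.

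The stretches upstream of Ldha and Ldhb are printed because the ratio of these genes differed between MetR_CE and Ctrl_RT in 3 tissues, as given below. They are the 250 bases before the RefSeq transcription start (build GRCm38.p6, 5′ to 3′ on the strand of the gene), with capitals for matches on either strand to the E-box CACGTG, the hypoxia response core ACGTG, which lies within each E-box, and the cAMP response element TGACGTCA.
Ldha, chr7:46845554-46845803, plus strand: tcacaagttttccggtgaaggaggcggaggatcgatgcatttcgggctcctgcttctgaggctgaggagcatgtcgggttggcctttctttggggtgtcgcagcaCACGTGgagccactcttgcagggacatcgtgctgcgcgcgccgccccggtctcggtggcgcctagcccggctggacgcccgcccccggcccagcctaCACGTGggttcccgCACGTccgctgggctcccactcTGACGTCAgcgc
Ldhb, chr6:142507958-142508207, minus strand: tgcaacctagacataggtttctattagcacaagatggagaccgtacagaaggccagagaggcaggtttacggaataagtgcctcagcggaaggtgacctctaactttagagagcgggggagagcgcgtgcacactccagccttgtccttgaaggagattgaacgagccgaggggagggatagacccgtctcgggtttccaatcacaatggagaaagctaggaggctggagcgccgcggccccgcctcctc
The Ldha stretch held E-boxes at 145 to 140 and 48 to 43 bases before the start, a further hypoxia core at 34 to 30 and a cAMP response element at 12 to 5, and the Ldhb stretch held none of these letters. Over all 32851 RefSeq promoters of this length, 6.021% held the E-box, 16.572% the hypoxia core and 1.546% the cAMP response element. RefSeq gives Ldha another start, whose 250 bases held no match. RefSeq promoters were found for 47 of the 50 members. A match describes letters and is no evidence of binding.

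All 6 genes of pyruvate entry rose in iWAT, with some of the PDH regulators. Dlat, the E2 core of the complex, was at 226 to 587 (median 272.2) CPM in Ctrl_RT, 432 to 908 (median 596) in MetR_RT, 652 to 1104 (median 922) in Ctrl_CE and 550.2 to 1018 (median 711) in MetR_CE. Ctrl_CE lay wholly above Ctrl_RT, and 1 Ctrl_RT library reached into the other groups. The log2 fold change of Dlat was 1.54 ± 0.20 (adjusted p = 3.26e-06) in Ctrl_CE, 1.09 ± 0.20 in MetR_RT and 1.27 ± 0.20 in MetR_CE. Pdhb, a subunit of the E1 decarboxylase, ran from 268.7 to 792 CPM in Ctrl_RT and from 888 to 1327 in Ctrl_CE, again with no overlap, and rose by 1.37 ± 0.22 (adjusted p = 3.32e-05). Pdk4, the starvation-induced kinase that inactivates PDH, was at 98.8 to 592 (median 182) CPM in Ctrl_RT, 135 to 1475 (median 594) in MetR_RT, 143 to 1965 (median 961) in Ctrl_CE and 910.3 to 1598 (median 1257) in MetR_CE. Its values spread widely within MetR_RT and Ctrl_CE, both of which overlapped Ctrl_RT, and only MetR_CE lay wholly above it. Pdk4 rose by 1.97 ± 0.47 (adjusted p = 0.00212) in Ctrl_CE, by 1.64 ± 0.47 (adjusted p = 0.011) in MetR_RT and by 2.38 ± 0.49 (adjusted p = 0.000302) in MetR_CE. Pdp2, a PDH phosphatase, was called higher in all 3 contrasts (0.95, 0.70 and 0.94), and Pdk2 in MetR_RT (0.86) and MetR_CE (0.87).

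**Figure D2:**
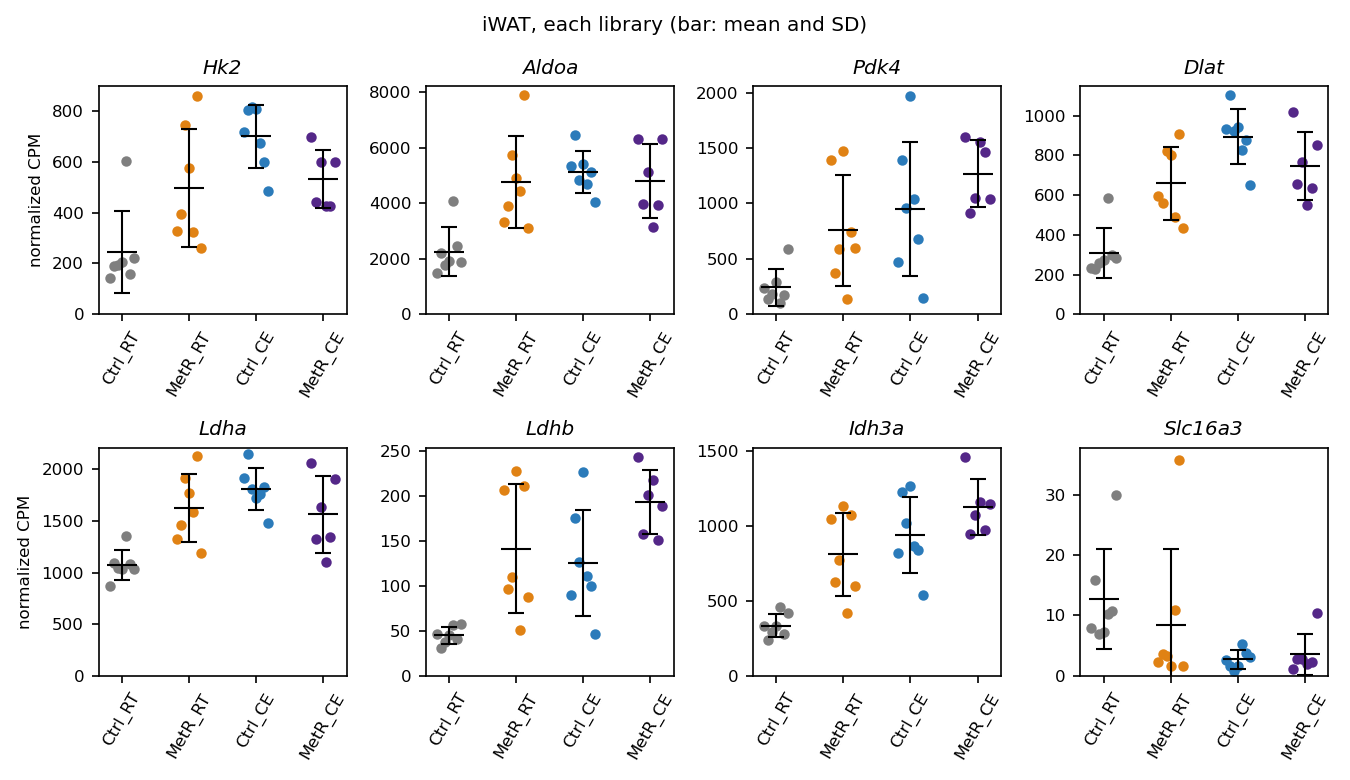
Normalized CPM of 8 genes in each iWAT library of the 4 groups, with points for libraries and bars for the mean and SD; the lower end of an SD bar below 0 is not drawn. For Pdk4 the MetR_CE libraries run from 910.3 to 1598 CPM and those of Ctrl_RT from 98.8 to 592; for Hk2, Aldoa and Dlat 1 Ctrl_RT library lies above the other 6.

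Most TCA cycle genes of iWAT rose in both diet and cold. Idh3a, the catalytic subunit of the NAD-dependent isocitrate dehydrogenase, was at 238 to 456 (median 333) CPM in Ctrl_RT, 417 to 1137 (median 773) in MetR_RT, 539 to 1271 (median 865) in Ctrl_CE and 944 to 1464 (median 1110) in MetR_CE. Both cold groups lay above Ctrl_RT, and MetR_RT overlapped it. It rose by 1.49 ± 0.20 (adjusted p = 6.63e-06) in Ctrl_CE, by 1.27 ± 0.20 in MetR_RT and by 1.75 ± 0.21 in MetR_CE. Cs, citrate synthase, rose by 1.27 ± 0.17, 1.20 ± 0.17 and 1.46 ± 0.18 in the same order. Ogdh, of the 2-oxoglutarate dehydrogenase complex, Suclg1, the shared subunit of succinyl-CoA synthetase, and Sucla2, its ATP-forming partner, changed by 1.57 ± 0.23, 1.56 ± 0.23 and 1.54 ± 0.23 in MetR_CE. Suclg2, the GTP-forming partner, was not called, at 0.35 ± 0.11. Idh2, the NADP-dependent mitochondrial enzyme, stood out by rising in MetR_RT (0.63 ± 0.09, adjusted p = 6.34e-05) and MetR_CE (0.67 ± 0.10) without being called in Ctrl_CE (0.17 ± 0.09). Its levels were 94 to 113 (median 106) CPM in Ctrl_RT and 103 to 139 (median 117) in Ctrl_CE, which overlapped, and 119 to 214 (median 155) in MetR_RT and 156 to 181 (median 167) in MetR_CE, which both lay above Ctrl_RT.

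No iWAT member was called when one stimulus was added to the other. Between MetR_CE and MetR_RT, edgeR called 0 of the 50 genes, with 7 at an unadjusted p below 0.05, where 1.88% of all genes were called. Between MetR_CE and Ctrl_CE it called 0, with 9 at an unadjusted p below 0.05, where 2.27% of all genes were called. The members' median log2 fold changes were 0.11 and 0.17. The interaction of diet and temperature, which asks whether the change in MetR_CE differs from the sum of the changes in MetR_RT and Ctrl_CE, was negative for 13 members and positive for 1, against 1.14% and 0.511% of all genes. The 13 were Slc2a4, Pfkl, Aldoa, Tpi1, Gapdh, Eno1, Ldha, Mpc2, Pdha1, Pdhb, Dlat, Cs and Mdh1, with Dlat the lowest at -1.36 ± 0.28 (adjusted p = 0.0134). Slc2a1 was the positive one (0.63 ± 0.14, adjusted p = 0.0208), with 12.2 to 19.8 CPM in Ctrl_RT, 12 to 17.4 in MetR_RT, 10.8 to 14.5 in Ctrl_CE and 15.1 to 20.1 in MetR_CE. The count of interactions moved with the libraries used: it was 6 without the 4 libraries whose muscle RNA exceeded 5 times the depot median and 25 without Ctrl_RT replicate 5, and DESeq2 without shrinkage called 28.

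Cell type markers moved with the iWAT groups. The summed level of 7 brown adipocyte genes was 93.5 to 872 CPM in Ctrl_RT, 477 to 5209 in MetR_RT, 883 to 6090 in Ctrl_CE and 3382 to 7925 in MetR_CE, and 7 of the 7 were called higher in each contrast. The sum of 5 macrophage genes was 1241 to 1971 CPM in Ctrl_RT, 220.5 to 935 in MetR_RT, 262.9 to 1408 in Ctrl_CE and 169 to 423 in MetR_CE, and 5 of the 5 were called lower in each. The 6 adipocyte genes summed to 14387 to 19054 CPM in Ctrl_RT and 21402 to 23697 in MetR_CE, with 3 called higher there. The 8 ciliated epithelium genes in the table summed to 65 to 111 CPM in Ctrl_RT and at most 57.1 in the other groups, and the 8 lymph node genes to at most 16.3 CPM in any library. The 7 hepatocyte genes summed to 17.5 to 37.6 CPM in Ctrl_RT, 31.7 to 86.8 in MetR_RT, 38.4 to 79.4 in Ctrl_CE and 48.1 to 99.5 in MetR_CE, with both cold groups above Ctrl_RT, and 2, 4 and 3 of the 7 were called higher in MetR_RT, Ctrl_CE and MetR_CE. The part of these shifts in the rise of the pathway was not tested.

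In iBAT, where most members stood highest in Ctrl_RT, few were called. In Ctrl_CE 2 of 50 were called, both higher, where 4.97% of the 23915 genes tested were called higher and 9.72% lower. In MetR_RT 1 was called, higher, against 0.535% and 1.97% of all genes. In MetR_CE 9 were called, all higher, against 4.36% and 10.3%. Median log2 fold changes of the members were 0.18, 0.19 and 0.19, beside -0.08, -0.0378 and -0.10 over all genes. No member was called for the interaction (0 of 50, with 20 at an unadjusted p below 0.05 and 0 by DESeq2), against 0.247% of all genes higher and 0.125% lower. The count in Ctrl_CE rose to 8 without the 5 libraries high in muscle RNA, and to 33 (24 higher, 9 lower) by adjusted p with no limit on fold. The shares of all genes above belong to the main fit with the fold limit and do not apply to these 2 counts. Brown adipocyte genes were called higher in the iBAT cold groups (4 of 7 in each), and macrophage genes lower in MetR_CE (4 of 5, with 26.2 to 42.7 CPM in sum against 62.5 to 108 in Ctrl_RT). Their part in the values below was not tested.

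All but the PDH kinases among the iBAT calls lay in glycolysis and its lactate branch. Hk1, the housekeeping hexokinase, was at 41.9 to 60.8 (median 49.7) CPM in Ctrl_RT, 56.1 to 69.3 (median 66.9) in MetR_RT, 83.7 to 113 (median 92.5) in Ctrl_CE and 85.3 to 103 (median 93) in MetR_CE. Both cold groups lay above both groups at 22 °C. Its log2 fold change was 0.95 ± 0.08 (adjusted p = 5.16e-10) in Ctrl_CE and 0.90 ± 0.08 in MetR_CE. Tpi1, triosephosphate isomerase, showed the same order, from 333 to 414 (median 389) CPM in Ctrl_RT to 657 to 786 (median 707) in Ctrl_CE, and rose by 0.90 ± 0.0523 (adjusted p = 1.95e-13). In MetR_CE, Gpi1 (0.72), Pfkl (0.73), Aldoa (0.60), Pgk1 (0.63), Pkm (0.65) and Ldha (0.67 ± 0.0592, adjusted p = 5.35e-10) joined them, together with Pdk3 (0.62), a PDH kinase that averaged 1.88 CPM in MetR_CE. Ldha was at 1551 to 1819 (median 1722) CPM in Ctrl_RT, 1872 to 2147 (median 1960) in MetR_RT, 1927 to 2666 (median 2434) in Ctrl_CE and 2543 to 2825 (median 2709) in MetR_CE, and no group reached down into Ctrl_RT. Grouping by the treatment tag left 7 of the 9 MetR_CE calls, without Aldoa and Pkm.

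Pdk1, a PDH kinase induced by hypoxia in many cells, went in opposite directions in iBAT. It was at 159 to 196 (median 179) CPM in Ctrl_RT, 276.4 to 304 (median 285.9) in MetR_RT, 104 to 152 (median 132) in Ctrl_CE and 164 to 229.8 (median 186) in MetR_CE. MetR_RT lay wholly above and Ctrl_CE wholly below Ctrl_RT, and MetR_CE overlapped it. The log2 fold change was 0.68 ± 0.08 (adjusted p = 4.15e-06) in MetR_RT, -0.47 ± 0.08 (adjusted p = 3.65e-05) in Ctrl_CE, which missed the fold limit, and 0.10 ± 0.08 in MetR_CE. By the treatment tag the MetR_RT value was 0.44 and the call was lost, whereas 2 members were called in MetR_RT without the 3 libraries in question. Pdk4, already at 2381 ± 412 CPM (SD) in iBAT Ctrl_RT, changed by 0.09 ± 0.12 in Ctrl_CE and -0.17 ± 0.11 in MetR_RT. The TCA cycle genes of iBAT moved both ways in Ctrl_CE, none of them past the fold limit: Idh3a by 0.45 ± 0.0468 (adjusted p = 7.49e-09), Mdh1 by 0.41 ± 0.0567, Idh2 by -0.55 ± 0.08 (adjusted p = 2.45e-06), Fh1 by -0.33 ± 0.0592 and Idh3b by -0.32 ± 0.0539.

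The difference of the responses between depots was tested in a joint fit of both, in which the depots of 1 mouse entered as separate libraries. With the mouse as a block (limma voom) the calls between iWAT and iBAT were 33 in cold and 28 with MetR, and included all of those given here. In cold, the log2 fold change of 27 members was higher in iWAT than in iBAT and that of 3 lower, against 6.15% and 4.39% of the 28303 genes tested. With MetR at 22 °C 22 were called, all of them higher in iWAT, against 3.11% and 1.55% of all genes. Of those higher in iWAT, Pdk4 differed most, by 1.89 ± 0.51 in cold (adjusted p = 0.00563) and by 1.83 ± 0.50 with MetR. Among pyruvate entry and the cycle, the cold responses of Pdhb (1.28 ± 0.24), Pdha1 (1.25 ± 0.22), Sucla2 (1.18 ± 0.24) and Fh1 (1.09 ± 0.17) were higher in iWAT. The 3 members with a lower cold response in iWAT lay in other steps, and were Hk1 (-1.11 ± 0.16), Pdp1 (-0.82 ± 0.12) and Slc16a3 (-2.52 ± 0.75). Aco1, the cytosolic aconitase, was called in neither depot alone (0.51 in iWAT and -0.33 in iBAT), and the difference was 0.85 ± 0.08 (adjusted p = 1.81e-10).

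Against eWAT, 7 members had a higher response to cold in iWAT, where 1.24% of the 30236 genes tested were higher and 1.9% lower. They were Pdk4 (2.35 ± 0.71), Ldhb (1.29 ± 0.35), Slc16a1 (1.23 ± 0.34), Ogdh (1.01 ± 0.27), Pdk2 (0.95 ± 0.27), Dlst (0.77 ± 0.24) and Idh3g (0.73 ± 0.21). With MetR, 16 were called, all higher in iWAT, against 1.28% of all genes higher and 1.16% lower, among them Pdk4 (2.69 ± 0.73), Ldhb (1.65 ± 0.36), Slc16a1 (1.504 ± 0.35), Suclg1 (1.44 ± 0.28) and Sucla2 (1.17 ± 0.28). With the mouse as a block 6 were called in cold and 18 with MetR, which shared 5 of the 7 and 14 of the 16. The 7 in cold fell to 4 with all libraries and to 3 without the iWAT libraries high in muscle RNA and eWAT Ctrl_RT replicate 7, whose muscle sum was raised by Acta1 alone.

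**Figure D3:**
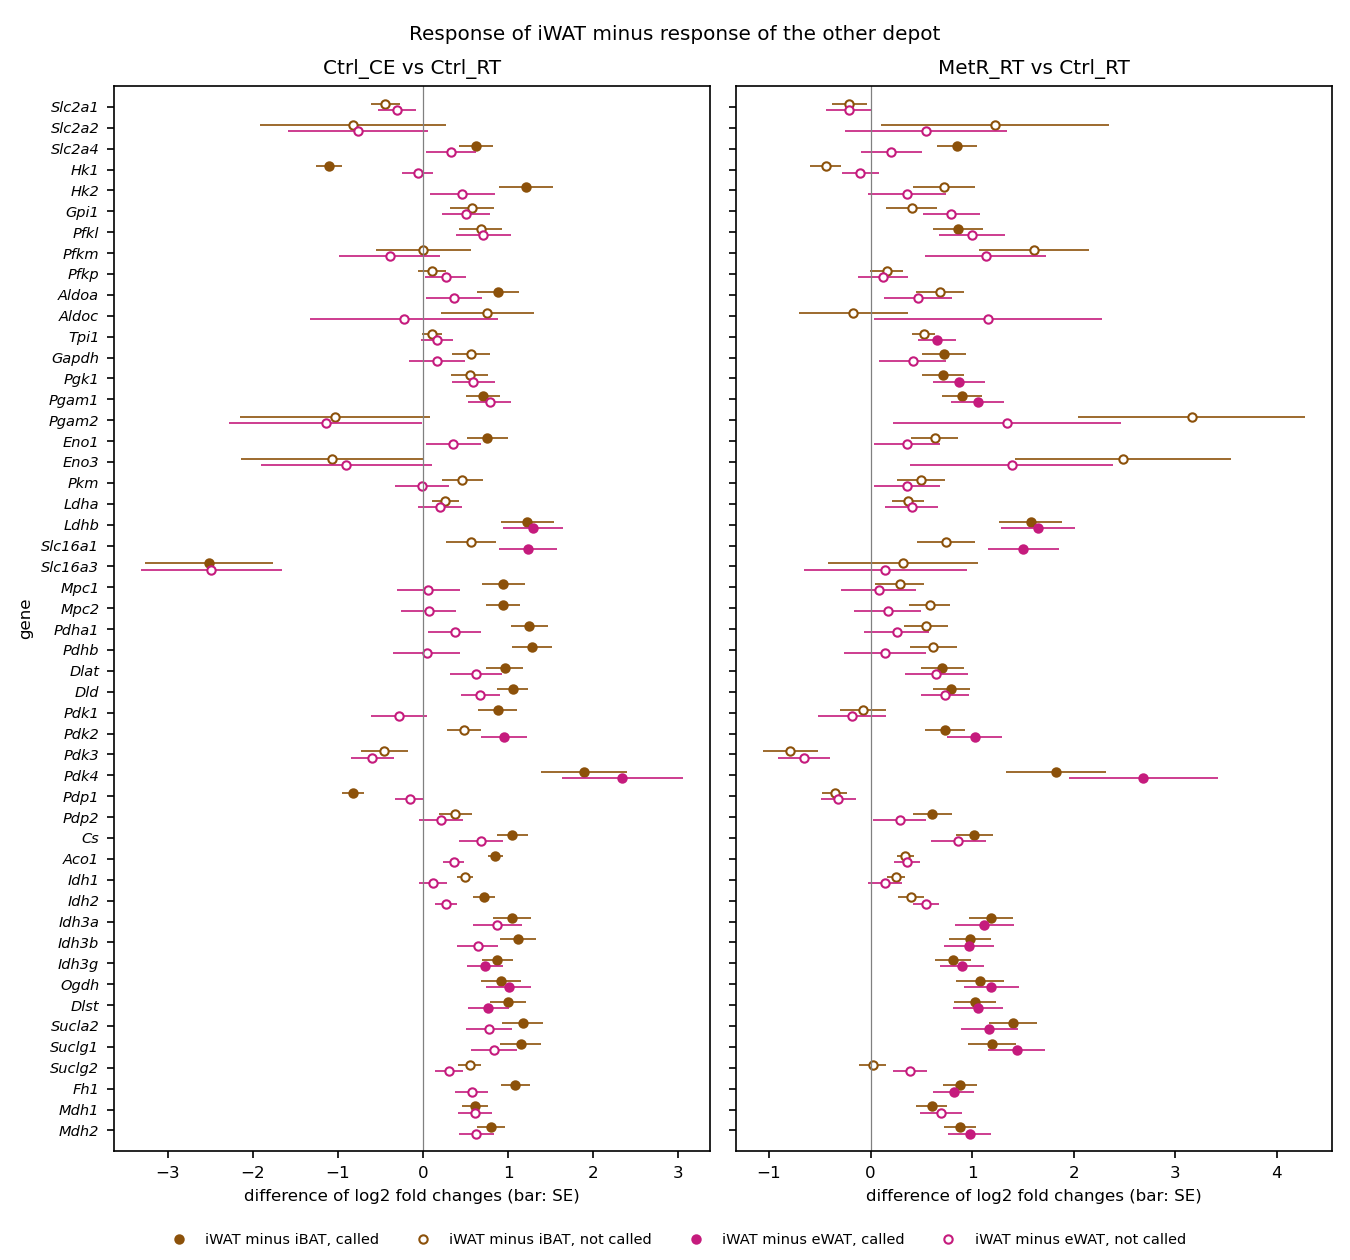
Difference of the log2 fold change between iWAT and iBAT and between iWAT and eWAT for each gene (rows), in Ctrl_CE against Ctrl_RT (left) and MetR_RT against Ctrl_RT (right). Bars are SE and filled points are called; Pdk4 and Ldhb lie to the right of 0 in both panels and against both depots.

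In eWAT the calls lay in Ctrl_CE. There 9 of 50 members were called, all higher, against 0.979% of the 27786 genes tested called higher and 1.44% lower. In MetR_RT 0 were called by edgeR, with 13 at an unadjusted p below 0.05 and 1 called by DESeq2, against 0.0324% and 0.0828% of all genes. In MetR_CE only Slc16a1 was called, lower, against 0.601% and 0.695%. The 9 were Hk2, Tpi1, Gapdh, Eno1, Pkm, Mpc2, Pdhb, Dlat and Pdp2. The members' median log2 fold changes were 0.39, 0.16 and -0.08, beside -0.0144, -0.021 and -0.0308 over all genes. The Ctrl_CE count rests on single libraries. It was 1 without Ctrl_RT replicate 1, 2 without Ctrl_RT replicate 7 or Ctrl_CE replicate 7, 3 without Ctrl_CE replicate 5, 5 without Ctrl_RT replicate 3 or 6 or Ctrl_CE replicate 6, 16 without Ctrl_CE replicate 4, and 23 (20 higher, 3 lower) with the libraries that the study left out. Epididymal epithelium markers reached 1280 CPM in 1 MetR_RT library, where the group's median was 0.627, and the 7 brown adipocyte genes summed to 25.2 to 39.2 CPM in Ctrl_RT, 13.7 to 49.6 in MetR_RT, 25.6 to 67.2 in Ctrl_CE and 12.3 to 38.4 in MetR_CE, with 2 of the 7 called higher in Ctrl_CE and 1 with a negative interaction. The part of these markers in the values was not tested.

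Pdhb was at 206, 207, 214 and 342 CPM in the eWAT Ctrl_RT libraries, 133 to 811 (median 418) in MetR_RT, 324 to 966 (median 625) in Ctrl_CE and 183 to 332 (median 228) in MetR_CE. Only the highest Ctrl_RT library reached into Ctrl_CE. The log2 fold change in Ctrl_CE was 1.34 ± 0.36 (adjusted p = 0.0333). Mpc2, of the mitochondrial pyruvate carrier, was at 149, 173, 189.7 and 193 CPM in Ctrl_RT and 197 to 545 (median 361) in Ctrl_CE, with no overlap, and rose by 1.09 ± 0.29 (adjusted p = 0.0294). Hk2, at 138, 154, 169 and 199 CPM in Ctrl_RT, was at 211 to 541 (median 329) in Ctrl_CE and rose by 1.06 ± 0.24 (adjusted p = 0.0117), again with no overlap. Pkm (0.95 ± 0.24) and Gapdh (0.95 ± 0.27) followed. Slc16a1 was at 81.8, 112, 152 and 161 CPM in Ctrl_RT, 53.1 to 104 (median 64.9) in MetR_RT, 64.5 to 120.0 (median 89.3) in Ctrl_CE and 37.7 to 56 (median 49.3) in MetR_CE. All MetR_CE libraries lay below Ctrl_RT, and the log2 fold change was -1.43 ± 0.18 (adjusted p = 0.000161).

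In eWAT, 16 members were lower in MetR_CE than in Ctrl_CE, where 2.12% of all genes were called lower. The interaction was negative for 16 members, against 1.2% of all genes lower and 1.1% higher. The interactions were those of Slc2a4, Gpi1, Pfkl, Aldoa, Tpi1, Gapdh, Eno1, Pkm, Ldha, Mpc1, Mpc2, Pdha1, Pdhb, Dlat, Pdk1 and Cs. The lowest were Pdhb (-2.10 ± 0.48, adjusted p = 0.0176), Pdk1 (-1.82 ± 0.37), Mpc1 (-1.76 ± 0.40) and Mpc2 (-1.75 ± 0.38). Pdk1 was at 59.1, 66.9, 67 and 82.1 CPM in Ctrl_RT, 53.9 to 207 (median 119.8) in MetR_RT, 68.5 to 156 (median 108) in Ctrl_CE and 45 to 79.6 (median 50.5) in MetR_CE, so that Ctrl_CE and MetR_RT reached above Ctrl_RT and MetR_CE did not. The count of interactions was 0 with all libraries, 4 without Ctrl_RT replicate 1, 10 without Ctrl_RT replicate 7 or MetR_RT replicate 3 or 5, and 24 without MetR_RT replicate 1.

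In the liver, 12 members were called in Ctrl_CE, all higher, where 7.28% of the 22143 genes tested were called higher and 4.64% lower. In MetR_RT 7 were higher and 1 lower, against 2.88% and 4.02% of all genes. In MetR_CE 9 were higher and 1 lower, against 6.25% and 7.22%. Median log2 fold changes of the members were 0.26, 0.10 and 0.29, beside -0.0108, 0.0045 and -0.0439 over all genes. Dlat had the 1 interaction called, -0.62 ± 0.12 (adjusted p = 0.00908), against 0.682% of all genes lower and 0.375% higher, and the call was lost with shrunken fold changes (-0.56).

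Ldha was the liver member that fell. It was at 826 to 1553 (median 1041) CPM in Ctrl_RT, 456 to 664 (median 635) in MetR_RT, 635 to 987 (median 921) in Ctrl_CE and 479.6 to 721 (median 647) in MetR_CE. Both MetR groups lay wholly below Ctrl_RT, and Ctrl_CE overlapped it. Ldha fell by 0.84 ± 0.12 (adjusted p = 1.08e-05) in MetR_RT and by 0.81 ± 0.12 (adjusted p = 6.51e-06) in MetR_CE, and its value in Ctrl_CE was -0.33 ± 0.12. Pdk1 rose in all 3 groups, from 45.7 to 117 (median 51.1) CPM in Ctrl_RT to 94.5 to 147 (median 104) in MetR_RT, 82.6 to 162 (median 132) in Ctrl_CE and 112 to 151 (median 131) in MetR_CE. A single Ctrl_RT library, replicate 5, overlapped the other groups. Its log2 fold change was 1.03 ± 0.17 (adjusted p = 1.89e-05) in Ctrl_CE, 0.93 ± 0.17 in MetR_RT and 1.14 ± 0.17 in MetR_CE. Gpi1, the isomerase after hexokinase, was the other member called higher in all 3 groups (0.70, 0.64 and 0.98), and its MetR_RT call was lost with shrunken fold changes (0.56).

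Most other calls of the liver lay in the cold groups. Pkm, the pyruvate kinase of non-hepatocyte cells, was at 12.3 to 19.7 (median 14.8) CPM in Ctrl_RT and 18.9 to 44.2 (median 25.1) in Ctrl_CE, and changed by 0.85 ± 0.14 (adjusted p = 2.68e-05) in Ctrl_CE and by 0.19 ± 0.14 in MetR_CE. The sum of 5 macrophage genes moved the same way, with 124 to 173 CPM in Ctrl_RT, 78.7 to 133 in MetR_RT, 139 to 518 in Ctrl_CE and 148 to 175 in MetR_CE, and 4 of the 5 were called higher in Ctrl_CE. Their part in the rise of Pkm was not tested. Pdk4 rose in Ctrl_CE, from 2.15 to 5.44 (median 4.24) to 4.01 to 12.3 (median 6.85) CPM, by 0.98 ± 0.26 (adjusted p = 0.00527), with overlap. Pdha1, of the PDH E1 enzyme, was at 94 to 129 (median 106) CPM in Ctrl_RT, 154 to 190.3 (median 168) in Ctrl_CE and 181 to 218 (median 203) in MetR_CE, with no overlap with Ctrl_RT, and rose by 0.65 ± 0.07 (adjusted p = 7.16e-08) and by 0.90 ± 0.07. Slc2a2 and Eno1 rose in both cold groups, by 0.62 and 0.90 for Slc2a2 and by 0.68 and 0.79 for Eno1. The Ctrl_CE call of Slc2a2 was lost with shrunken fold changes (0.58).

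Aldoa, Idh2 and Pdhb rose in both MetR groups of the liver. Aldoa was at 99.1 to 146 (median 116) CPM in Ctrl_RT, 159 to 195 (median 189) in MetR_RT, 108 to 150.4 (median 131) in Ctrl_CE and 169.9 to 200.4 (median 187) in MetR_CE. Both MetR groups lay wholly above both control groups. Its log2 fold change was 0.62 ± 0.08 (adjusted p = 6.85e-07) in MetR_RT and 0.67 ± 0.08 in MetR_CE, beside 0.13 ± 0.08 in Ctrl_CE. Idh2 changed by 0.77 ± 0.10 and 0.67 ± 0.10, and Pdhb by 0.75 ± 0.14 and 0.77 ± 0.14. Slc2a4, at 0.75 ± 0.664 CPM (SD) in Ctrl_RT, was called in MetR_RT (1.67 ± 0.55) and Ctrl_CE (1.49 ± 0.55), with overlapping groups and few counts at this level.

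Partners that catalyse the same step were compared through the log2 ratio of their CPM in each library, which does not depend on library size. Exact two-sided permutation tests of 56 combinations of pair and tissue against Ctrl_RT gave 168 p-values, of which 59 passed an adjusted p of 0.05. The smallest p that 7 libraries against 7 allow is 0.000583. Without the libraries high in muscle RNA, 10 rather than 16 of the 42 iBAT tests passed, and 16 rather than 21 of the 42 iWAT tests. The ratio of Ldhb to Ldha rose in iWAT and the liver and fell in iBAT. In iWAT the log2 ratio ran from -5.16 to -4.16 in Ctrl_RT and from -3.34 to -2.34 in MetR_CE, with no overlap, a difference of 1.59 (exact permutation test, adjusted p = 0.00816). It rose by 0.91 in MetR_RT and was not past the threshold in Ctrl_CE (0.60). In the liver it rose by 0.94 in MetR_RT and 1.13 in MetR_CE, with Ldhb at 1.56 CPM in Ctrl_RT. In iBAT it fell by 0.15 in MetR_RT and by 0.46 in MetR_CE (exact permutation test, adjusted p = 0.00816), again with no overlap in MetR_CE.

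**Figure D4:**
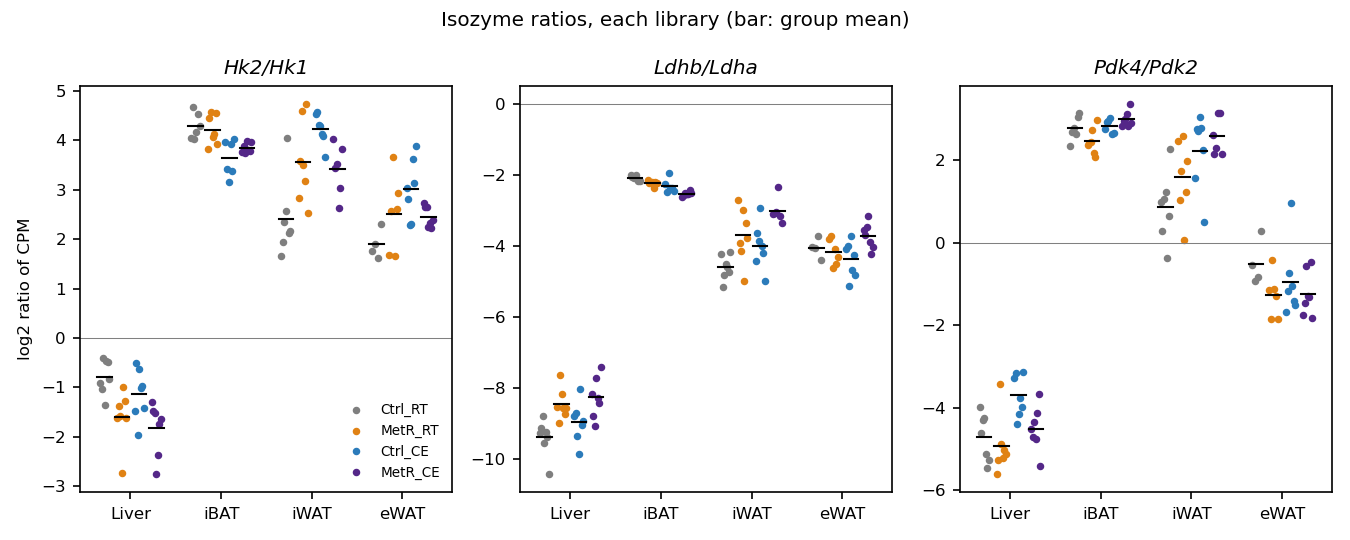
Log2 ratio of CPM of Hk2 to Hk1, Ldhb to Ldha and Pdk4 to Pdk2 in each library (points) of the 4 groups in each tissue, with bars at group means. Ratios compare partners of unequal length, so that only their differences between groups are read; the Ldhb to Ldha ratio of MetR_CE lies above Ctrl_RT in iWAT and below it in iBAT.

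The hexokinase ratio also rose in one depot and fell in another. Hk2 to Hk1 rose in iWAT Ctrl_CE by 1.82 (exact permutation test, adjusted p = 0.0089), and fell in iBAT by 0.65 in Ctrl_CE and 0.44 in MetR_CE. In the liver it fell by 0.82 in MetR_RT and 1.04 in MetR_CE. Among PDH kinases, Pdk4 to Pdk2 rose in iWAT by 1.36 in Ctrl_CE and 1.71 in MetR_CE, and in liver Ctrl_CE by 1.02. Pdk1 to Pdk2 in iBAT rose by 0.54 in MetR_RT and fell by 0.52 in Ctrl_CE. In iWAT, Suclg2 to Sucla2 fell in MetR_RT, Ctrl_CE and MetR_CE, by 0.88, 0.76 and 1.20, and in MetR_CE it ran from -3.27 to -2.87 against -2.16 to -1.46 in Ctrl_RT. Pdp2 to Pdp1 rose in the same groups, by 0.91, 1.35 and 1.14. The phosphofructokinases differed by depot: Pfkp to Pfkl fell in iWAT by 0.92 in MetR_RT, 0.72 in Ctrl_CE and 0.80 in MetR_CE and rose in the liver by 0.78 in Ctrl_CE and 0.69 in MetR_CE. Idh2 to Idh1, the mitochondrial against the cytosolic NADP enzyme, fell in Ctrl_CE of iBAT (-0.61), iWAT (-0.38) and the liver (-0.39), rose in liver MetR_RT (0.46) and rose in iWAT MetR_CE (0.28). Mdh2 to Mdh1, the corresponding malate dehydrogenases, fell in iBAT in Ctrl_CE (-0.21) and MetR_CE (-0.25) and rose in the same groups of the liver (0.26 and 0.29). Pdk1 to Pdk2 rose in all 3 liver groups (0.73 in MetR_RT, 1.16 in Ctrl_CE and 1.04 in MetR_CE) and fell in iWAT MetR_CE (-0.87).

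Eno3, Pgam2 and Pfkm encode the muscle forms of enolase, phosphoglycerate mutase and phosphofructokinase, and fat pieces can carry attached muscle. The summed level of 18 skeletal muscle genes (Acta1, Ckm, Myh4 and others) ran from 31.5 to 2637 CPM over the iBAT libraries (median 230), from 31.05 to 29721 over iWAT (median 1010) and from 35.6 to 465 over eWAT (median 53.8), and it was highest in MetR_RT replicate 6 of iWAT. The highest eWAT sum, in Ctrl_RT replicate 7, was Acta1 at 422 CPM, with Ckm at 0.0425 CPM. As deviations from group means in log2 CPM, Eno3 followed the muscle sum in iBAT with Pearson r = 0.946 and Spearman rho = 0.976 over 26 libraries, and in iWAT with r = 0.964 and rho = 0.98 over 27. For Pgam2 r was 0.938 and 0.968 with rho of 0.957 and 0.98, and for Pfkm r was 0.793 and 0.784 with rho of 0.878 and 0.809. Permutation within groups gave adjusted p from 4.20e-05 to 0.000175 for r in these 6 of 21 relations computed and 3.50e-05 for each rho, from unadjusted values of which 1e-05 is the smallest that 100000 permutations can give. Without the 2 libraries farthest from the median muscle sum, r stayed between 0.773 and 0.974. In eWAT, where muscle RNA was low, r was -0.224 for Eno3, -0.178 for Pgam2 and 0.0673 for Pfkm, with adjusted p of 0.301, 0.53 and 0.751 by permutation. Aldoa, Pkm, Eno1 and Pgam1, the widely expressed forms, did not pass in any depot. The muscle list itself had median log2 fold changes in iWAT of 1.78 in MetR_RT, -1.61 in Ctrl_CE and 0.31 in MetR_CE, with 2, 0 and 3 of the 18 genes called, all higher, against 4.25%, 5.99% and 8.05% of all genes.

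**Figure D5:**
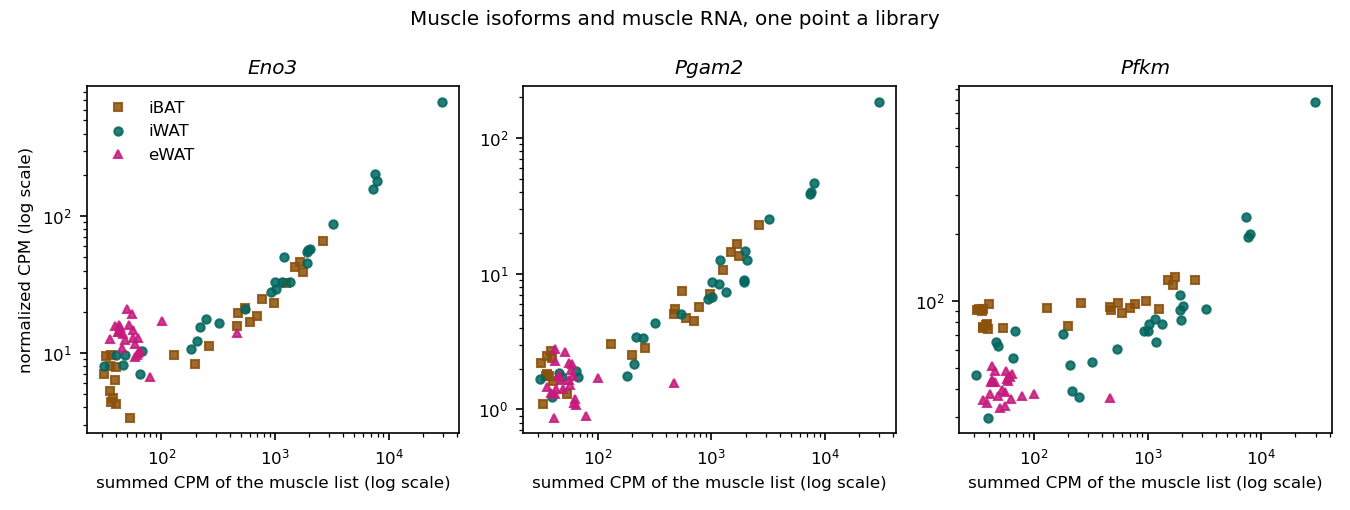
Normalized CPM of Eno3, Pgam2 and Pfkm against the summed CPM of 18 muscle genes, 1 point a library, both axes on a log scale, for iBAT, iWAT and eWAT. In iBAT and iWAT the points of Eno3, Pgam2 and Pfkm rise with the muscle sum at higher sums and level off at low sums. The eWAT points stay at the left.

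The muscle forms varied widely between libraries of 1 group in iWAT. There Eno3 was at 7.97 to 202 (median 17.6) CPM in Ctrl_RT, 10.7 to 683 (median 33.1) in MetR_RT, 7.04 to 56.2 (median 16.7) in Ctrl_CE and 10.3 to 159 (median 39.1) in MetR_CE, and all groups overlapped. Its log2 fold change in MetR_RT was 1.37 ± 0.83 (adjusted p = 0.264) and -0.11 without the 4 libraries high in muscle RNA. For Pgam2 the same values were 1.58 ± 0.88 and -0.23. Pfkm was called in iWAT MetR_RT, at 1.44 ± 0.51 (adjusted p = 0.0404), with 51.7 to 789 (median 82.9) CPM against 29.8 to 193 (median 46.4) in Ctrl_RT. Without those 4 libraries it was 0.54 and the call was lost. In Ctrl_CE, Pfkm was -0.15 ± 0.50 with all libraries and 0.33 without them. In iBAT, Eno3 was at 7.07 to 66.1 (median 20.5) CPM in Ctrl_RT and 4.68 to 23.1 (median 8.25) in MetR_CE, with no member of the trio called. eWAT held 6.62 to 12.9 CPM of Eno3 in Ctrl_CE and 12.5 to 20.9 in MetR_CE, and the ratio of Eno3 to Eno1 fell in Ctrl_CE by 1.35 (exact permutation test, adjusted p = 0.0231).

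The counts of iWAT without the libraries high in muscle RNA were near those with them: 32 members rose and 1 fell in Ctrl_CE, 32 rose and 1 fell in MetR_RT, while 34 rose and 1 fell in MetR_CE. The libraries left out were Ctrl_RT replicate 2, MetR_RT replicates 5 and 6 and MetR_CE replicate 6. Those kept were not free of muscle RNA, because the limit follows the median of each depot. Ctrl_RT replicate 6, at a muscle sum of 3233 CPM, stayed in, above the highest iBAT sum of 2637 CPM.

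A further 36 genes of the pathway (other isozymes, succinate dehydrogenase, anaplerotic enzymes, shuttles and regulators) were counted beside the members. In iWAT 35 were tested, and 17 rose and 2 fell in Ctrl_CE, 15 rose and 4 fell in MetR_CE, while MetR_RT had 13 higher and 3 lower. The shares of all genes called higher and lower in iWAT were 5.99% and 9.94%, 8.05% and 14.4%, and 4.25% and 7.36% in that order. Sdhb of succinate dehydrogenase rose by 0.81, 1.03 and 1.18 in Ctrl_CE, MetR_RT and MetR_CE. Got1, the cytosolic aspartate aminotransferase of the malate-aspartate shuttle, rose by 2.42 in iWAT MetR_CE and by 2.32 in iBAT Ctrl_CE. Hk3, the hexokinase of myeloid cells, fell by 1.35, 1.74 and 2.51 in iWAT, where the macrophage sum fell too; the part of the macrophages was not tested. In iBAT, of 34 tested, 2 rose and 5 fell in Ctrl_CE, 4 rose and 1 fell in MetR_RT, and 4 rose and 4 fell in MetR_CE, where the shares of all genes called higher and lower were 4.97% and 9.72%, 0.535% and 1.97%, and 4.36% and 10.3%.

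In the liver all 36 were tested, and 9 rose in Ctrl_CE, 4 rose and 1 fell in MetR_RT, and 10 rose and 2 fell in MetR_CE, beside 7.28% and 4.64%, 2.88% and 4.02%, and 6.25% and 7.22% of all genes called higher and lower. Me1, malic enzyme, had the largest change, with 2.498, 1.51 and 2.10. Ldhd, the D-lactate dehydrogenase, was lower in MetR_RT (-0.87) and MetR_CE (-0.96). In eWAT 4 of the 36 rose in Ctrl_CE (Me1, Gpd1, Slc25a10 and Pfkfb4), 0 in MetR_RT (9 at an unadjusted p below 0.05), and 1 in MetR_CE (Pfkfb3, 0.77), where 0.979%, 0.0324% and 0.601% of all genes were called higher. Of them, 10 had a negative interaction there, against 1.2% of all genes, with Acly, ATP citrate lyase, at -4.83 and Me1 at -3.95, beside the 16 members that had one.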

How the data were processed

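The 4 tissues were sequenced as polyA-selected RNA with paired reads. Per the labels and the study's methods, the authors aligned reads with STAR 2.7.9a to mm10, and their processing notes also name featureCounts 2.0.3, Salmon 1.9.0, MultiQC 1.19 and DESeq2 1.46.0. The deposited values are raw counts per gene, with no normalization. Which annotation release the identifiers follow was not settled, so no coordinates of measured genes are given. Levels per length used the union of the exons of each gene in GENCODE M21, which may differ from that release. Comparisons between genes depend on these lengths, and those of 1 gene between tissues do not. For these levels the Ctrl_RT libraries of all tissues were scaled together by TMM factors. Of 56884 rows, 51948 matched a symbol in a RefSeq table and 33 in the study's source data. Totals were 6987895 to 33444374 per library (liver), 12672686 to 31232349 (iBAT), 16607493 to 33141066 (iWAT) and 22021114 to 33372110 (eWAT), and counting error covers sequencing only.

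The 5 libraries that the study excluded (iBAT Ctrl_CE replicate 5, eWAT Ctrl_RT replicates 2, 4 and 5, and MetR_RT replicate 7) were left out of the main fits. Which libraries these were was found by comparing means with the study's source data. Genes with at least 10 counts in a tissue were fitted with edgeR 4.0.16 (R 4.3.3, TMM, quasi-likelihood) with diet, temperature and their interaction, and Benjamini-Hochberg adjustment over all genes. Calls needed an adjusted p below 0.05 with a log2 fold change of 0.585 or more in either direction. Depot differences came from joint fits, with limma 3.58.1 (voom, mouse as a block) as an alternative. Ratios of isozymes used a prior of 0.5 counts, where both partners averaged at least 1 CPM, and exact two-sided permutation tests. Correlations used 100000 permutations within groups. Libraries high in muscle RNA exceeded 5 times the depot median of the muscle list, which 1 eWAT library did through Acta1 alone. Alternatives included DESeq2 1.42.0 with and without apeglm 1.24.0, RLE factors, filters and libraries left out. The edgeR fit was tested on counts simulated with the library sizes and groups of iWAT. The genes named are the called members with the largest changes, up to 5 in each direction per contrast, the members of called interactions and depot differences, the muscle forms and the isozyme pairs. Members and lists were chosen by name, with earlier results of these data known. The mouse is the replicate.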

Additional observations from a re-analysis of the deposited data

Results flagged for a closer look

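A set is a gene, or the muscle sum, in 1 group of a tissue. In 32 of the 172 sets of libraries examined, the highest or lowest library stood apart from the rest by Dixon's criterion. Chance gives about 1 in 20 for normally distributed values. The sets share libraries and were examined in CPM without a log scale, so this rate is no measure for the 32. In the liver, MetR_RT replicate 1 was low for Pdha1 at 105 CPM, MetR_RT replicate 4 was low for Dlat at 48.6 CPM and Ctrl_RT replicate 5 was high for Pdk1 at 117 CPM. In the liver, MetR_RT replicate 3 was high for Pdk4 at 9.11 CPM. In iWAT, Ctrl_RT replicate 5 was high for Hk2 at 604, Aldoa at 4091, Pdhb at 792, Dlat at 587 and Cs at 907 CPM, Ctrl_RT replicate 2 was high for Pfkm at 193 and Eno3 at 202 CPM and MetR_RT replicate 6 was high for Pfkm at 789, Pgam2 at 185, Eno3 at 683 and Slc16a3 at 35.8 CPM. In iWAT, MetR_CE replicate 6 was high for Pfkm at 239, Pgam2 at 38.7, Eno3 at 159 and Slc16a3 at 10.4 CPM, MetR_CE replicate 1 was high for Pgam1 at 125 CPM and Ctrl_CE replicate 5 was high for Pgam2 at 14.7 and Eno3 at 56.2 CPM. In iWAT, Ctrl_RT replicate 7 was high for Slc16a3 at 30.03 and Pdk4 at 592 CPM. In eWAT, MetR_CE replicate 3 was high for Hk2 at 319.8 CPM, MetR_CE replicate 5 was high for Eno3 at 20.9 CPM and Ctrl_RT replicate 3 was high for Pdhb at 342 CPM. In eWAT, MetR_CE replicate 1 was high for Pdk1 at 79.6 CPM. The summed muscle genes stood apart in Ctrl_RT replicate 2 (7581 CPM), MetR_RT replicate 6 (29721 CPM) and MetR_CE replicate 6 (7328 CPM) of iWAT, and these 3 are among the libraries named for Eno3, Pgam2 and Pfkm. In eWAT the sum stood apart in Ctrl_RT replicate 7 (465 CPM) through Acta1 alone, at 422 CPM, with Ckm at 0.0425 CPM. The library Ctrl_RT replicate 5 of iWAT was high for 5 genes from hexokinase to citrate synthase together.

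Responses that differed between groups by a test of the difference itself are given as log2 values (edgeR quasi-likelihood, Benjamini-Hochberg over all genes). In iWAT the interaction of diet and temperature was Slc2a1 0.63 and Slc2a4 -0.96 in glucose uptake, Pfkl -1.18 and Aldoa -1.17 in upper glycolysis, Tpi1 -0.74, Gapdh -1.03 and Eno1 -1.10 in lower glycolysis. It was Ldha -0.81 in the lactate genes, Mpc2 -1.16, Pdha1 -1.005, Pdhb -1.28 and Dlat -1.36 in pyruvate entry, Cs -1.004 and Mdh1 -0.72 in the TCA cycle. In eWAT the interaction of diet and temperature was Slc2a4 -1.21 in glucose uptake, Gpi1 -0.67, Pfkl -1.07 and Aldoa -1.48 in upper glycolysis, Tpi1 -0.86, Gapdh -1.59, Eno1 -1.44 and Pkm -1.62 in lower glycolysis. It was Ldha -1.20 in the lactate genes, Mpc1 -1.76, Mpc2 -1.75, Pdha1 -1.41, Pdhb -2.10 and Dlat -1.46 in pyruvate entry, Pdk1 -1.82 in the PDH regulators. It was Cs -1.13 in the TCA cycle. In the liver it was Dlat -0.62.

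The response to cold in iWAT minus that in iBAT was Slc2a4 0.62 in glucose uptake, Hk1 -1.11, Hk2 1.21 and Aldoa 0.89 in upper glycolysis, Pgam1 0.71 and Eno1 0.76 in lower glycolysis. It was Ldhb 1.23 and Slc16a3 -2.52 in the lactate genes, Mpc1 0.95, Mpc2 0.94, Pdha1 1.25, Pdhb 1.28, Dlat 0.96 and Dld 1.06 in pyruvate entry, Pdk1 0.88, Pdk4 1.89 and Pdp1 -0.82 in the PDH regulators. It was Cs 1.05, Aco1 0.85, Idh2 0.72, Idh3a 1.05, Idh3b 1.12, Idh3g 0.88, Ogdh 0.92, Dlst 1.005, Sucla2 1.18, Suclg1 1.15, Fh1 1.09, Mdh1 0.61 and Mdh2 0.80 in the TCA cycle. The response to MetR in iWAT minus that in iBAT was Slc2a4 0.85 in glucose uptake, Pfkl 0.86 in upper glycolysis, Gapdh 0.72, Pgk1 0.71 and Pgam1 0.90 in lower glycolysis. It was Ldhb 1.58 in the lactate genes, Dlat 0.71 and Dld 0.79 in pyruvate entry, Pdk2 0.73, Pdk4 1.83 and Pdp2 0.61 in the PDH regulators. It was Cs 1.02, Idh3a 1.19, Idh3b 0.98, Idh3g 0.81, Ogdh 1.08, Dlst 1.03, Sucla2 1.40, Suclg1 1.20, Fh1 0.88, Mdh1 0.60 and Mdh2 0.88 in the TCA cycle.

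The response to cold in iWAT minus that in eWAT was Ldhb 1.29 and Slc16a1 1.23 in the lactate genes, Pdk2 0.95 and Pdk4 2.35 in the PDH regulators, Idh3g 0.73, Ogdh 1.01 and Dlst 0.77 in the TCA cycle. The response to MetR in iWAT minus that in eWAT was Tpi1 0.66, Pgk1 0.87 and Pgam1 1.05 in lower glycolysis, Ldhb 1.65 and Slc16a1 1.504 in the lactate genes, Pdk2 1.02 and Pdk4 2.69 in the PDH regulators. It was Idh3a 1.12, Idh3b 0.97, Idh3g 0.90, Ogdh 1.19, Dlst 1.06, Sucla2 1.17, Suclg1 1.44, Fh1 0.82 and Mdh2 0.98 in the TCA cycle.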

How the results depend on the processing

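Of the counts of members recomputed under an alternative, 223 stayed within 1.5 times the reported count and 49 did not. The latter follow, and the cause was not tested. By adjusted p alone, with no limit on fold and therefore more calls, the counts were 26, 19 and 29 in the liver (Ctrl_CE, MetR_RT, MetR_CE), 33, 26 and 35 in iBAT and 4 for the iBAT interaction. The shares of all genes given with the results carry the fold limit and do not apply to these counts. DESeq2 without shrinkage gave 3 liver interactions, 15 eWAT calls in Ctrl_CE and 1 in MetR_RT, 4 and 2 in iBAT, and 28 iWAT interactions. With shrinkage it gave 1 in eWAT MetR_RT and 4 in iBAT Ctrl_CE, where RLE factors gave 4. The filterByExpr filter gave 2 liver interactions, 4 in iBAT Ctrl_CE and 23 iWAT interactions, and no filter gave 9 of the latter. All libraries gave 23 in eWAT Ctrl_CE, 2 in MetR_CE, 0 interactions, and 4 differences of the cold response between iWAT and eWAT. Without eWAT Ctrl_RT replicate 7, high in Acta1 alone, there were 2 in eWAT Ctrl_CE and 10 eWAT interactions. Without libraries high in muscle RNA there were 8 and 2 in iBAT Ctrl_CE and MetR_RT, 6 iWAT interactions and, without both kinds, 3 differences from eWAT. The treatment tag gave 0 in iBAT MetR_RT, and leaving out the libraries concerned gave 2. Without iWAT Ctrl_RT replicate 5, chosen after seeing the data, there were 25 iWAT interactions. A fit of only the groups compared gave 2 in eWAT MetR_CE. Leaving out 1 eWAT library at a time gave 1 to 16 in Ctrl_CE, 0 to 1 in MetR_RT and 4 to 24 interactions. Equal replicate numbers in different groups mark different mice, and they did not pair the libraries: the median correlation of same-numbered deviations was 0.0013, 0.017, 0.054 and 0.069 in the liver, iBAT, iWAT and eWAT, and 1 of 28, 7 of 26, 3 of 27 and 4 of 24 libraries correlated best with their own number. With a replicate block the counts were 11, 9 and 10 in the liver, 2, 1 and 9 in iBAT, 34, 34 and 35 in iWAT and 13, 0 and 2 in eWAT. Of 3229 values of single genes recomputed, 2960 kept their direction and side of the threshold, 8 newly passed it, 18 changed sign and the rest fell below it. Those that changed sign were values of the muscle forms that did not pass the threshold. Eno3 turned in eWAT MetR_CE with all libraries (-0.20), with the replicate block (-0.013) and without MetR_CE replicate 5 (-0.022, against at most 0.15 without another library), and in eWAT MetR_RT with no filter (0.0012) and without Ctrl_RT replicate 6 (0.069) or MetR_RT replicate 3 (0.063) or 5 (0.04). In iWAT MetR_CE Eno3 turned with only the groups compared (0.016) and without high-muscle libraries (0.13), which also turned Eno3 (-0.11) and Pgam2 (-0.23) in MetR_RT and Pfkm in Ctrl_CE (0.33). Pfkm in iWAT Ctrl_CE was 0.10 with the replicate block, and with all eWAT libraries it was -0.056 in Ctrl_CE and -0.18 in MetR_CE. Pgam2 was 0.031 in eWAT Ctrl_CE without Ctrl_RT replicate 1, against as low as -0.26 without another library, -0.80 in eWAT MetR_RT with all libraries and 0.019 in iBAT Ctrl_CE by the treatment tag. Depth limits low genes such as liver Slc2a4, at 0.75 ± 0.664 CPM (SD, n = 7) in Ctrl_RT, and liver Ldhb, at 1.56 ± 0.328 CPM (SD, n = 7).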
